A study of Mus musculus with 4 samples.

Results

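Tmem176a and Tmem176b are neighbouring genes that encode related transmembrane proteins, and their RNA was described here across the spleen cells of mice transplanted with allogeneic bone marrow and T cells (Tc). The members were found by their 2 symbols, each of which named 1 of the 32285 genes in the count tables. The pair itself was chosen by its measured levels in the Tc states, other cells and genotypes of these same libraries, so every level, difference and order given for it is a description and carries no test.

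The TMEM176 proteins span the membrane several times, resemble the CD20-like MS4A family, and form cation channels in the membranes of intracellular vesicles. In the immune system the pair is known from dendritic cells and other myeloid cells, where Tmem176b was linked to antigen processing and to restraint of the inflammasome. Among lymphocytes the pair is known from type 17 helper Tc and related innate lymphocytes.

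The study prepared 4 single-cell RNA-Seq libraries, 1 per mouse, to compare donor Tc with and without a deletion of TIM-3 (encoded by Havcr2) in CD8+ Tc. All recipients were BALB/c mice that received lethal total body irradiation, 10000 cells of the mouse myelomonocytic leukemia line WEHI-3B and allogeneic C57BL/6 bone marrow, followed on day 2 by 200000 donor Tc. Spleens were taken on day 23, and Tc were enriched with a pan-T cell kit and stained with an oligonucleotide-tagged antibody to the donor haplotype H-2Kb. In 2 libraries the donors were Havcr2fl/fl, with Havcr2 flanked by Cre target sites and no Cre, and in 2 they were Havcr2fl/fl;E8icre/+, in which Cre is driven by a Cd8a enhancer that is active in mature CD8+ Tc. This driver is not expected to act in CD4+ Tc or in the myeloid and erythroid cells. Those of donor origin still carry the floxed gene in both groups. The libraries may also hold recipient or leukemia cells, which have neither donor genotype, and origin was judged only by the donor tag.

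Before filtering, the libraries held 15784 barcodes with 142576164 unique molecular identifiers (UMIs, each standing for 1 captured RNA molecule). After filtering, 11507 of these barcodes were used (1204 to 4328 per library). Although the libraries are labelled as T cells, 4739 of the cells fell outside the clusters that carried Cd3 RNA. Within the T cell clusters, CD8+ Tc were those with RNA of Cd8a or Cd8b1 but none of Cd4 (4258 cells), and CD4+ Tc those with RNA of Cd4 but of neither Cd8 gene (1754 cells). The floxed replicate 2 had the shallowest Tc, with a median of 2745.5 UMIs per CD4+ Tc against 3843 to 5406 in the others. Pairs of libraries shared 1 to 10 barcodes. Havcr2 in CD8+ Tc was 61.2 and 7.93 CPM (the UMIs of a gene per 1000000 UMIs of the class) in the 2 libraries labelled Havcr2fl/fl;E8icre/+ and 54.8 and 115 CPM in the 2 labelled Havcr2fl/fl, so replicate 1 of the former did not stand below the floxed libraries. A 3′ read may lie outside the part that Cre removes, which is not given in the sources used here, so this level does not check the label.

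Both genes lie head to head on chromosome 6 of the mm10 genome (GRCm38, GENCODE M21 gene models). Tmem176b (ENSMUSG00000029810) runs on the minus strand at chr6:48833818-48841496, and Tmem176a (ENSMUSG00000023367) on the plus strand at chr6:48840919-48847071. The gene models share 578 bases at their 5′ ends, so that the 3′ ends, where this chemistry reads, point away from each other. The windows from 250 bases before to 50 bases after a start site are shown because they are in large part the same DNA read from opposite strands. RefSeq lists 2 such windows for Tmem176a and 3 for Tmem176b on GRCm38.p6, and the ones with the largest overlap are printed, 5′ to 3′. Capitals mark the letters GGAAGT or their reverse complement ACTTCC, the core of sites bound by ETS family factors.
Tmem176a, chr6:48841406-48841705, plus strand: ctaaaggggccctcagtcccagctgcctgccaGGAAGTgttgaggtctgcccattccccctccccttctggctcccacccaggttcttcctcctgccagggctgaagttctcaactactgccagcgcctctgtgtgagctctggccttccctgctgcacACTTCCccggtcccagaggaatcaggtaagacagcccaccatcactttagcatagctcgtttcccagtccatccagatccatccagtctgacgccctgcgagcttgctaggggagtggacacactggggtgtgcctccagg
Tmem176b, chr6:48841325-48841624, minus strand: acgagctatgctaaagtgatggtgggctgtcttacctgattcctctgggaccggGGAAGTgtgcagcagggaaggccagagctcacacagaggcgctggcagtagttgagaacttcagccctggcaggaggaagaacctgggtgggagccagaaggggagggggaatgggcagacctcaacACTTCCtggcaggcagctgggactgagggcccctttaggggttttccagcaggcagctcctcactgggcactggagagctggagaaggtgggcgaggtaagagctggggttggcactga

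These 2 windows shared 219 bases, and their start sites (48841656 for Tmem176a and 48841374 for Tmem176b) lay 282 bases apart. Each window held 2 matches to GGAAGT, which are the same letters seen from either strand, and 23.8% of all 32851 windows of 300 bases held at least 1 match. Each also held 1 match to CAGCTG, an E-box that reads the same on both strands and that 16.3% of windows held. No match was found in either window, on either strand, to the TATA box TATAAA, which 13.6% of windows held. A match is a description of letters, and the absence of one covers only these windows. The G and C content was 60.3% in each window, with a median of 52.7% over all windows.

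The highest level of the pair was found outside the Tc, in a cluster of 111 cells with B or plasma cell markers (cluster 19). Tmem176a stood there at 362, 565 and 528 CPM in the 3 libraries with at least 20 such cells (Havcr2fl/fl;E8icre/+ replicates 1 and 2 and Havcr2fl/fl replicate 2), a mean of 485 ± 108 CPM (SD, n = 3). Tmem176b stood at 332, 496 and 468 CPM in the same libraries, a mean of 432 ± 87.6 CPM (SD, n = 3). Both genes were thus seen at one order of level in every library with enough cells, and the 2 cells of the remaining library held 33 UMIs of Tmem176a and 17 of Tmem176b. A UMI of either gene was present in 104 of the 111 cells, and both genes in 94. The 107 cells of the cluster with at least 10 UMIs of Jchain, the joining chain of secreted antibodies, carried all 1701 of its pair UMIs, and the other 4 cells carried 0. The cluster made up 0.965% of the cells and held 39.5% of all pair UMIs. Immunoglobulin RNA took up 58.2% to 61.9% of the UMIs of these cells.

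Among the myeloid and progenitor cells, 3 clusters held the pair at an intermediate level. Cluster 12 (349 cells, led by F13a1, Prtn3, Fn1 and Elane, with Csf1r raised, and left unnamed, since these mark both monocytes and granulocyte precursors) had Tmem176a at 35.6 and 27.0 CPM in the Havcr2fl/fl;E8icre/+ libraries and at 31.4 and 29.3 CPM in the Havcr2fl/fl libraries. Tmem176b in the same cells was 40.5 and 45.7 CPM against 32.2 and 36.7 CPM. The Tmem176a values of the groups overlapped there. A UMI of either gene was held by 61.9% of the cells, at a median of 33106 UMIs per cell. After cells were thinned to the depth used below for CD4+ Tc, this share was 15.2%. In cluster 17, with basophil or mast cell markers (191 cells), the means were 38.8 ± 10.9 CPM for Tmem176a and 44.9 ± 14.7 CPM for Tmem176b (SD, n = 3 libraries). Cluster 13, with stem and progenitor markers (326 cells), had more Tmem176b than Tmem176a in each of the 4 libraries, with means of 60.8 ± 37.8 and 34.3 ± 21.1 CPM (SD, n = 4). Its spread came in part from 1 cell of Havcr2fl/fl replicate 1 that held 79 of that library's 125 pair UMIs. The cell's log donor tag count lay more than 3 scaled median absolute deviations below the library's median, which does not settle its origin. Without this cell the library's Tmem176a level in cluster 13 went from 63.7 to 26.4 CPM, and that of Tmem176b from 113 to 41.1 CPM.

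The other clusters outside the Tc held little of either gene. In the erythroid-like cells (clusters 7, 10 and 18, with 1391 cells) Tmem176a was 0, 0.869, 0 and 2.93 CPM and Tmem176b 0.637, 0.869, 0.629 and 2.74 CPM in Havcr2fl/fl;E8icre/+ replicates 1 and 2 and Havcr2fl/fl replicates 1 and 2. The 3 UMIs taken as the limit of a count of 0 correspond to 1.91 and 1.89 CPM in the 2 libraries without a Tmem176a UMI. In Havcr2fl/fl replicate 2, 1 cell with 737 Jchain UMIs held 23 of the 37 pair UMIs of the class, and without it the levels were 0.552 and 0.920 CPM. Red cell precursors serve here as the background, and 0.719% of them (10 of 1391, at a median of 6139 UMIs per cell) held a UMI of either gene. A cluster with markers of dendritic cells, a known source of the pair, comprised 72 cells with a median of 2272.5 UMIs (cluster 20, with Xcr1 and Clec9a among its leading genes) and held 2 UMIs of each gene. On these few UMIs its mean was 8.13 CPM for each gene (n = 2 libraries), and 4.17% of its cells held a UMI of either gene. In the large unnamed cluster 0 (1439 cells), 158 of the 196 pair UMIs were in 8 cells that also held 82 to 1084 Jchain UMIs.

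**Figure D1:**
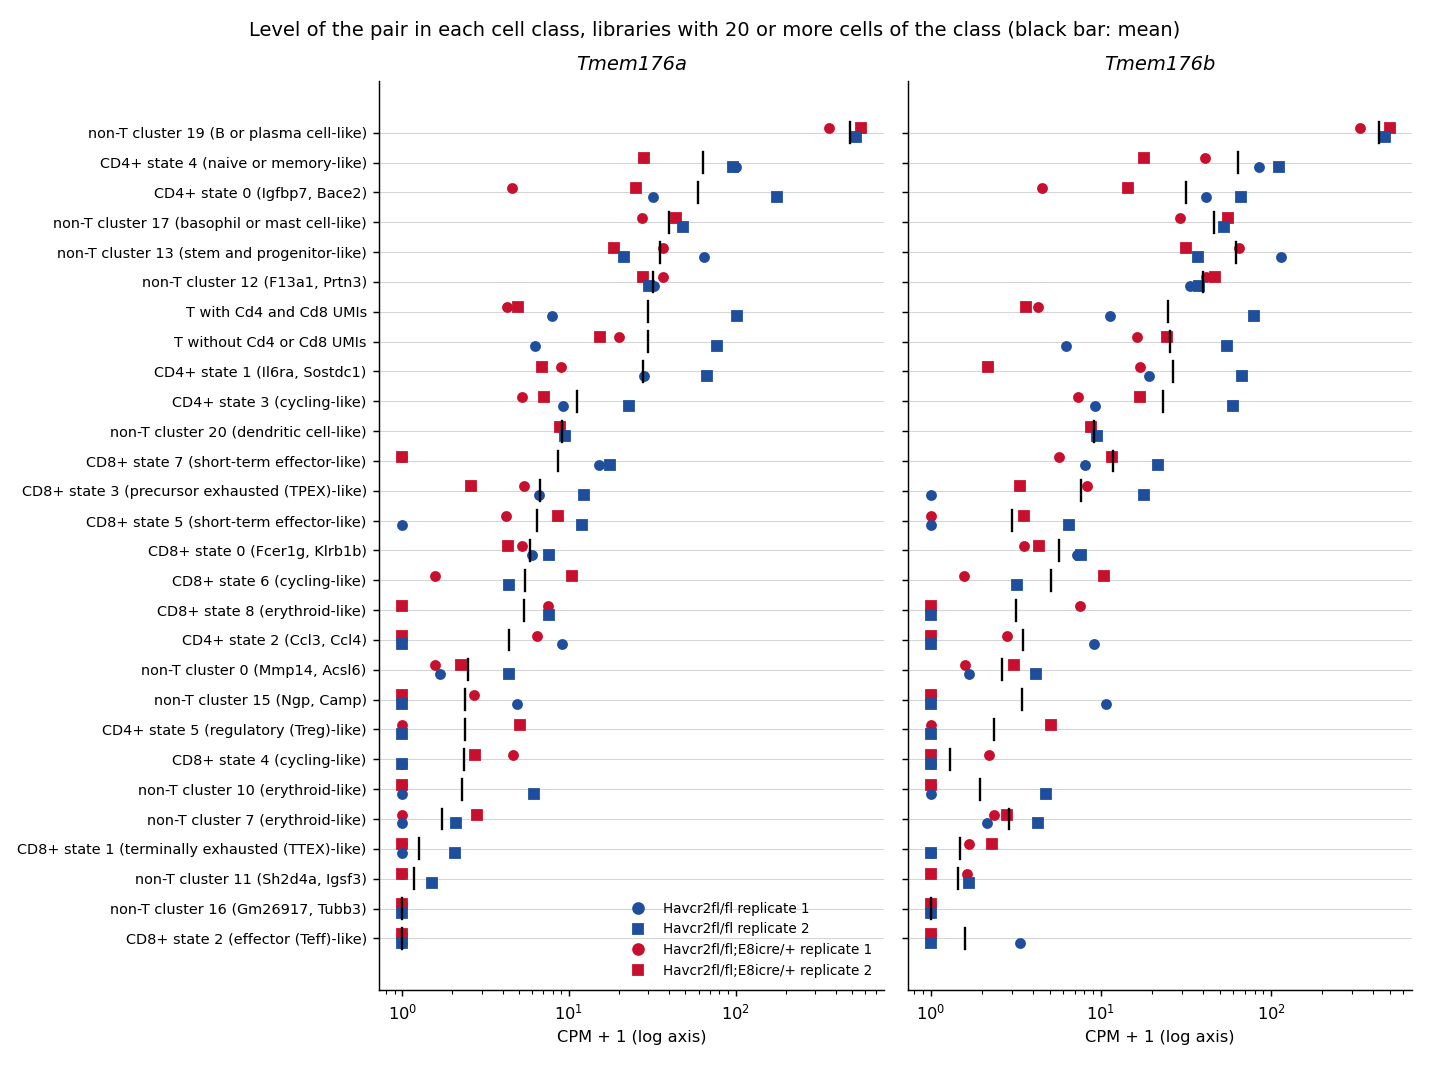
Level of Tmem176a and Tmem176b in each cell class with at least 20 cells in each of 2 or more libraries, in CPM plus 1 on a log axis. Points are libraries coloured by genotype label, the black bar is their mean, and classes are ordered by the mean of Tmem176a, from the plasma cell-like cluster (485 CPM) down to classes at 0.

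Among the Tc, the pair was more abundant in CD4+ than in CD8+ cells of the same mouse. In CD4+ Tc, Tmem176a was 6.19 and 12.5 CPM (18 and 48 UMIs) in the Havcr2fl/fl;E8icre/+ libraries and 41.0 and 74.4 CPM (61 and 77 UMIs) in the Havcr2fl/fl libraries. In CD8+ Tc it was 2.04 and 2.69 CPM (18 and 19 UMIs) and 3.27 and 4.36 CPM (13 and 21 UMIs). Within each of the 4 mice the CD4+ value was the higher one. Tmem176b showed the same order, at 7.92, 9.41, 36.3 and 59.9 CPM in CD4+ Tc and 1.58, 2.83, 3.77 and 3.94 CPM in CD8+ Tc, with the libraries in the sequence used above. The fitted log2 difference of CD4+ minus CD8+ Tc, with the mouse as a block, was 3.02 ± 0.32 (SE) for Tmem176a and 2.87 ± 0.31 (SE) for Tmem176b. In that comparison 24.3% of the 10308 genes tested passed an adjusted p of 0.05 (edgeR's quasi-likelihood test with Benjamini-Hochberg adjustment), 12.3% higher and 12.1% lower in CD4+ Tc. Both members were among the higher ones, and nothing is read from this for genes chosen with these values known.

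The CD4+ Tc levels did not overlap between the groups, and the libraries labelled Havcr2fl/fl were the higher ones for both genes. With 2 libraries per group, values can easily fail to overlap without a difference between genotypes. The share of all genes that did so was not counted, so a lack of overlap, here and in the other cells of this report, is only a description. The mean of Tmem176a was 9.37 ± 4.49 CPM (SD, n = 2) in the Havcr2fl/fl;E8icre/+ libraries and 57.7 ± 23.6 CPM (SD, n = 2) in the Havcr2fl/fl libraries, and the means of Tmem176b were 8.66 ± 1.05 and 48.1 ± 16.7 CPM. The 95% exact Poisson intervals, which cover counting error only, ended at 9.79 and 16.6 CPM in the former for Tmem176a and began at 31.4 and 58.7 CPM in the latter. The fitted log2 difference (Havcr2fl/fl;E8icre/+ minus Havcr2fl/fl) was -2.60 ± 0.39 (SE) for Tmem176a and -2.48 ± 0.32 (SE) for Tmem176b. At an adjusted p of 0.05 this comparison called 1 of 9648 genes, 0.0104% lower and 0% higher in the Havcr2fl/fl;E8icre/+ libraries, namely Eps8l1 (log2 difference -6.78 ± 0.76, adjusted p = 0.0479, edgeR's quasi-likelihood test with Benjamini-Hochberg adjustment), and neither member was called. Their calls changed with the setting. DESeq2, which called 6 genes, called both, as did edgeR without a filter on low counts, with crossed replicate numbers, without either Havcr2fl/fl;E8icre/+ replicate and without Havcr2fl/fl replicate 1. Classes by cluster and the removal of cells with many Jchain UMIs each gave a call of 1 member, and the other 7 alternatives gave none, so that no weight is placed on the calls of genes chosen with these values known. With 2 mice per group this difference rests on 4 values for each gene, and the count of called genes ran from 0 to 45 over the alternatives tried, with 27, 25, 7 and 6 called when Havcr2fl/fl;E8icre/+ replicate 1 or 2 or Havcr2fl/fl replicate 1 or 2 was left out.

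The difference in CD4+ Tc was one of positive cells as well as of UMIs per cell. A UMI of either gene was found in 24 of 577 (4.16%, 95% Wilson interval 2.81 to 6.11) and 26 of 624 (4.17%, 2.86 to 6.04) CD4+ Tc of the Havcr2fl/fl;E8icre/+ libraries. In the Havcr2fl/fl libraries it was found in 27 of 241 (11.2%, 7.81 to 15.8) and 38 of 312 (12.2%, 9.0 to 16.3). The order stayed the same after every cell was thinned to 2000 UMIs, which gave 2.51% and 3.41% against 7.26% and 10.1%, after shallower cells had been left out (19 and 8 against 7 and 54 cells). All 8 shares lay above the 0.719% of the erythroid-like cells. Cells with at least 5 pair UMIs numbered 1 and 3 against 8 and 10, and the highest cell of each library held 5, 16, 17 and 19. The UMIs were thus concentrated, with 63.3% to 81.0% of a library's pair UMIs in its 10 highest cells. Without those 10 cells, the summed CPM of both genes was 4.91 and 4.29 against 22.0 and 51.6, so the groups remained apart.

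RNA of plasma cells, the class richest in the pair, was looked for in the same cells. The plasma cell-like cluster held 22.1 Jchain UMIs for each pair UMI, the CD8+ Tc held 2.37, and the CD4+ Tc held 0.335. Such a ratio also falls as the pair's own level rises. Jchain in CD4+ Tc was 11.4 and 15.4 CPM in the Havcr2fl/fl;E8icre/+ libraries and 7.40 and 23.2 CPM in the Havcr2fl/fl libraries, and these groups overlapped, unlike those of the pair. Of the 102 CD4+ Tc with a Jchain UMI 11.8% held the pair, against 6.23% of those without one. The share was the higher one in each of the 4 libraries (10.7%, 9.76%, 18.2% and 13.6% against 3.83%, 3.77%, 10.9% and 12.1%). The shares with Jchain rest on few cells, namely 3 of 28, 4 of 41, 2 of 11 and 3 of 22. The part of plasma cell RNA in the pair's level in CD4+ Tc was not tested beyond these values. A single CD4+ Tc, in Havcr2fl/fl;E8icre/+ replicate 2, had 10 or more Jchain UMIs, and it carried 16 pair UMIs. Without it the level in that library was 11.6 CPM for Tmem176a and 6.34 CPM for Tmem176b.

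**Figure D2:**
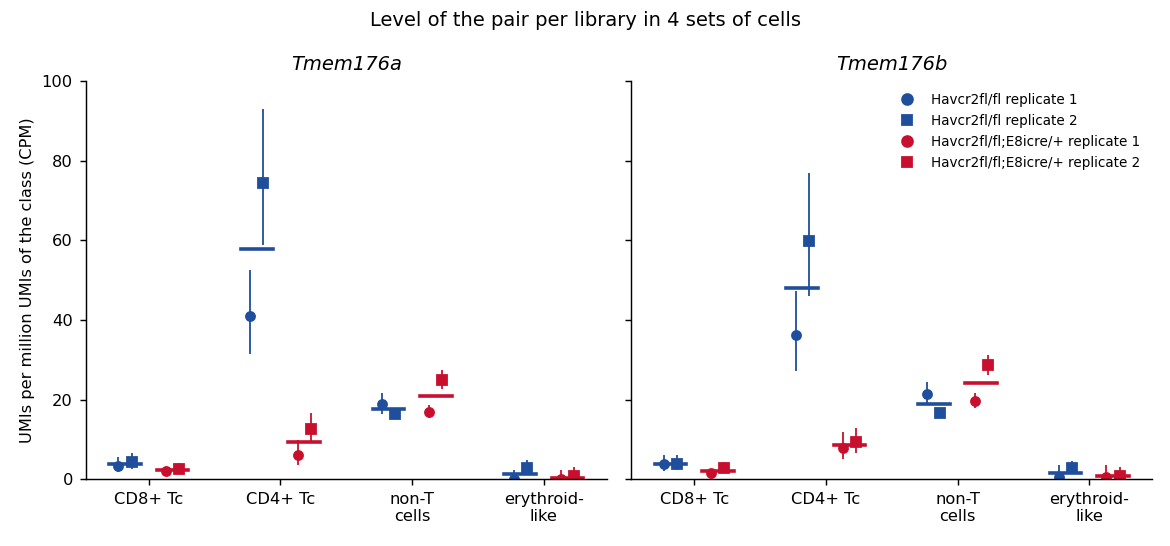
Level of Tmem176a and Tmem176b in each library in CPM, for CD8+ Tc, CD4+ Tc, cells outside the T cell clusters and erythroid-like cells. Points carry 95% exact Poisson intervals and horizontal bars are group means, and in CD4+ Tc the points of the Havcr2fl/fl libraries (41.0 and 74.4 CPM for Tmem176a) lie above those of the Havcr2fl/fl;E8icre/+ libraries (6.19 and 12.5 CPM).

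In CD8+ Tc, the cells that the E8i driver is meant for, the levels of both genes were low in all 4 libraries. The group means were 2.36 ± 0.46 and 3.81 ± 0.77 CPM for Tmem176a and 2.21 ± 0.88 and 3.86 ± 0.12 CPM for Tmem176b (SD, n = 2 each, Havcr2fl/fl;E8icre/+ first). A UMI of either gene was present in 1.37% and 1.46% of the cells against 3.09% and 2.49%. The values of the groups did not overlap, but each rested on 13 to 21 UMIs of a gene. The log2 differences were -0.74 ± 0.45 (SE) for Tmem176a and -0.85 ± 0.48 (SE) for Tmem176b. Here 3 of 10872 genes, 0.0276%, passed the adjusted p of 0.05 (edgeR's quasi-likelihood test with Benjamini-Hochberg adjustment). Prdm16 and Xlr were higher (0.0184% of the genes tested) and Tigit lower (0.0092%) in the Havcr2fl/fl;E8icre/+ libraries, and neither member was called. The count became 0 with a replicate block and 10, 1, 13 and 7 with each library left out in the same sequence.

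Outside the T cell clusters the levels of the groups overlapped. Tmem176a was 17 and 25.0 CPM in the Havcr2fl/fl;E8icre/+ libraries and 18.9 and 16.5 CPM in the Havcr2fl/fl libraries, and Tmem176b 19.8 and 28.6 against 21.5 and 16.6 CPM. The log2 differences were 0.14 ± 0.32 (SE) and 0.24 ± 0.33 (SE), each smaller than its SE, so no direction is read from them. These levels pool clusters whose shares differed between the libraries. The plasma cell-like cluster, the richest in the pair, made up 2.22% and 2.8% of these cells in the Havcr2fl/fl;E8icre/+ libraries. In the Havcr2fl/fl libraries it made up 0.494% and 2.56%. The part of such shares in the differences was not tested. The difference between cell types in the genotype difference was not tested. In these cells 0 of 12596 genes (0%) passed the adjusted p of 0.05 in edgeR's quasi-likelihood test with Benjamini-Hochberg adjustment, 189 had an unadjusted p under 0.05, and DESeq2 called 25. Without Havcr2fl/fl replicate 1 or replicate 2 the count was 399 or 117, and it stayed at 0 without either of the other libraries. In the erythroid-like cells 0 of 7097 genes (0%) passed, with 284 under an unadjusted p of 0.05, and the pair was too low to be fitted.

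The CD4+ Tc fell into 6 states by clustering without the pair, and 2 of these states held 257 of its 379 UMIs. State 4 (191 cells, with naive or memory T markers, led by Ifitm1, Ifitm2, Klrk1, Ifitm3, Itga1, Anxa1 and Ly6c2) had the highest means, 62.5 ± 41.1 CPM for Tmem176a and 62.8 ± 42 CPM for Tmem176b (SD, n = 4). Tmem176a was 26.7 and 27.2 CPM there in the Havcr2fl/fl;E8icre/+ libraries and 100 and 96.0 CPM in the Havcr2fl/fl libraries. Tmem176b was 40.0 and 17 against 84.4 and 109.8 CPM. In this state, too, the groups did not overlap for either gene. The share of its cells with a UMI of either gene was 16.3% and 14.9% against 25.5% and 18.8%. State 4 also took up more of the CD4+ Tc in the Havcr2fl/fl libraries, at 19.5% and 15.4% against 8.49% and 7.53%, so its size moved in the same direction as the level of the pair. It held 0.0598 Jchain UMIs for each pair UMI, a ratio that falls as the pair's own level rises. In counts, its 191 cells held 7 UMIs of Jchain and 248 of the immunoglobulin gene Igkc. The 602 cells of state 0 held 42 and 650.

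State 0 (602 cells, led by Igfbp7, Bace2, Serpina3f, Ebi3 and Lgals7) had a mean level of Tmem176a like that of state 4 but a wider spread. Tmem176a was 3.52 and 24.2 CPM in the Havcr2fl/fl;E8icre/+ libraries and 30.9 and 177 CPM in the Havcr2fl/fl libraries. Tmem176b was 3.52 and 13.3 against 40.4 and 65.7 CPM. The groups did not overlap, yet few cells carried this signal, with 5, 11, 6 and 12 positive cells in the 4 libraries and 77.9% of the state's 140 pair UMIs in 10 cells. The means over libraries of states 0 and 4 were 58.8 ± 79.4 and 62.5 ± 41.1 CPM for Tmem176a (SD, n = 4). For Tmem176b they were 30.8 ± 28.1 and 62.8 ± 42 CPM, and these spreads include both genotypes. Within each mouse Tmem176b was higher in state 4 than in state 0. Tmem176a was also higher in state 4, except in Havcr2fl/fl replicate 2.

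State 1 (344 cells, led by Il6ra, Sostdc1, Ccr7, Id3, Tcf7 and Slamf6) came next, and 1 library stood out in it. Tmem176a was 7.95 and 5.84 CPM in the Havcr2fl/fl;E8icre/+ libraries and 27.4 and 66.3 CPM in the Havcr2fl/fl libraries. Tmem176b was 15.9 and 1.17 against 18.2 and 66.3 CPM. Of its 18 positive cells, 10 came from Havcr2fl/fl replicate 2, and the other libraries gave 2 or 3 each. The groups did not overlap, but these values rest on 50 pair UMIs in all.

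The cycling CD4+ cells held somewhat less, and the remaining states little. State 3, with cycling markers (209 cells), had Tmem176b at 6.32 and 15.9 against 8.27 and 58.7 CPM and Tmem176a at 4.22 and 6.1 against 8.27 and 22.0 CPM, so that the groups overlapped for Tmem176b. The single Jchain-rich CD4+ Tc belonged to this state, and without it Havcr2fl/fl;E8icre/+ replicate 2 stood at 1.28 CPM for both genes. State 2 (304 cells, led by Ccl3, Ccl4, Prf1, Nr4a2 and Eomes) had means of 3.39 and 2.48 CPM for Tmem176a and Tmem176b. State 5, with regulatory T markers (104 cells, led by Foxp3), had the lowest mean of CD4+ Tc for both genes, 1.36 CPM. States 2 and 5 together held 18 of the 379 pair UMIs, 8 of them in the 5 state 5 cells of Havcr2fl/fl replicate 1, which lie outside these means.

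The CD8+ states held from 1 to 33 pair UMIs each. State 7, with short-term effector markers (249 cells, led by Ifitm1, S1pr5, Ifitm2 and Anxa1, and with Klrg1 and Cx3cr1 raised), had the highest mean of both genes, 7.64 ± 8.88 CPM for Tmem176a and 10.7 ± 7.05 CPM for Tmem176b (SD, n = 4). Tmem176a there was 0 in both Havcr2fl/fl;E8icre/+ libraries and 14.0 and 16.5 CPM in the Havcr2fl/fl libraries, on 4 UMIs each. The counts of 0 allow up to 13.9 and 10.7 CPM, so the difference rests on a handful of UMIs, and the Tmem176b values overlapped between the groups (4.65 and 10.7 against 7.02 and 20.6 CPM). State 3, with precursor exhausted (TPEX) markers (508 cells), followed at 5.70 ± 4.07 and 6.61 ± 7.47 CPM. State 5, also with short-term effector markers (353 cells), was next for Tmem176a at 5.41 ± 4.80 CPM but stood at 1.99 ± 2.59 CPM for Tmem176b, and the unnamed state 0 (837 cells, led by Fcer1g, with Itga1) was at 4.80 and 4.69 CPM. The spreads over libraries of these neighbours in the order overlapped, but the states come from the same mice and were not compared within them. The terminally exhausted (TTEX) markers marked state 1, where 717 cells held 1 UMI of Tmem176a and 2 of Tmem176b. The effector-like state 2 held 0 Tmem176a UMIs in 673 cells, which allows a share of cells with a UMI of up to 0.446%, and 1 UMI of Tmem176b. Both of these states lay below the share of positive cells in the erythroid-like background, with 0.418% and 0.149% of cells holding a UMI of either gene. The lowest mean of Tmem176b, 0.303 CPM, was that of the cycling-like state 4, and another cycling-like state, state 6, owed 16 of its 25 pair UMIs to 1 cell of Havcr2fl/fl;E8icre/+ replicate 2.

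Tc without a Cd4 or Cd8 UMI (535 cells, of which some may be CD4+ or CD8+ cells read at low depth) also held the pair. Their Tmem176a level was 19.0 and 14.3 CPM in the Havcr2fl/fl;E8icre/+ libraries and 5.21 and 76.2 CPM in the Havcr2fl/fl libraries, and that of Tmem176b was 15.2 and 23.3 against 5.21 and 54.4 CPM. The groups overlapped, and the value of Havcr2fl/fl replicate 2 was far above the other 3. In the 221 Tc with both Cd4 and Cd8 UMIs, the same library stood highest, at 101 CPM for Tmem176a from 9 UMIs in 22 cells.

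Both genes were found together in a part of the positive cells. Of the 115 CD4+ Tc with a UMI of either gene, 46 held both, 37 held only Tmem176a and 32 held only Tmem176b. Tmem176b was detected in 55.4% of the CD4+ Tc with a Tmem176a UMI and in 1.92% of those without one. In CD4+ state 4, where 18.8% of the cells were positive, 17 of 36 positive cells held both. In CD8+ Tc 16 of 82 positive cells held both, and the shares were 32.7% and 0.784%. Both were found together more often in cluster 12 (124 of 216 positive cells) and the plasma cell-like cluster (94 of 104). These cells were also deeper, with medians of 33106 and 15258 UMIs against 4838 in CD4+ state 4. After the thinning used above, the counts were 3 of 53 and 33 of 81 positive cells, against 6 of 27 in CD4+ state 4. Cluster 12 then stood below state 4, so its higher share is not read as a matter of level. Over 29 classes Spearman's rho between the levels of both genes was 0.94, and over the 15 T cell states alone it was 0.91. These classes share libraries and depth, so both values are descriptions.

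**Figure D3:**
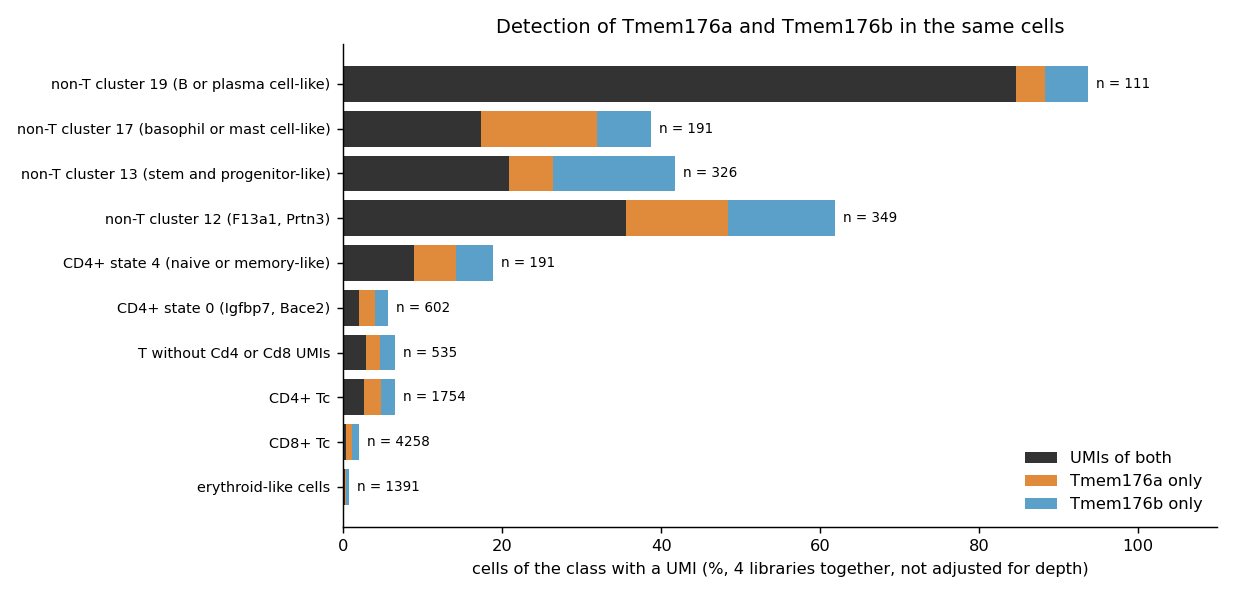
Share of cells with a UMI of both genes, of Tmem176a only and of Tmem176b only in each class, in percent of the cells of the class. The stacked bars show both genes together as the largest part in the plasma cell-like cluster (94 of 104 positive cells) and a more even split in CD4+ Tc (46, 37 and 32 cells).

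Marker genes of helper fates were compared with the pair cell by cell in CD4+ Tc. Ccr6, a chemokine receptor of type 17 cells, was detected in 25 CD4+ Tc. The pair was found in 1 of 7, 1 of 10, 1 of 3 and 2 of 5 of these in the 4 libraries. Of the cells without Ccr6, 4.04%, 4.07%, 10.9% and 11.7% held the pair. The cells with Ccr6 were deeper, with a median of 5382 UMIs against 4503. Of the cells with Il23r, a receptor chain for IL-23, 0 of 1, 0 of 6, 0 of 3 and 1 of 2 held the pair. Il17a, the signature cytokine of type 17 cells, was captured in 0 of 1754 CD4+ Tc, which allows a share of cells with a UMI of up to 0.171% and sets no limit on cells that express it below this depth (median 4513 UMIs). The markers of other fates showed no common direction over the libraries. Of the cells with Foxp3, the factor of regulatory cells, 0 of 33, 2 of 57, 3 of 6 and 0 of 17 held the pair. For Gata3 of type 2 cells the share with the pair was 4.98% and 5.45% in the Havcr2fl/fl;E8icre/+ libraries, against 3.38% and 3.15% without Gata3, and 11.2% and 11% in the Havcr2fl/fl libraries, against 11.2% and 12.6%. For Tbx21 of type 1 cells it was 6.74% and 6.60%, against 3.69% and 3.67%, and then 10.5% and 6.25%, against 11.4% and 12.9%. In the Tc without a Cd4 or Cd8 UMI, libraries pooled, the pair was found in the 1 cell with Il17a. It was also found there in 3 of 7 cells with Ccr6 and 1 of 1 with Il23r. In CD8+ Tc it was found in 1 of 97 cells with Ccr6 and 1 of 17 with Il23r, and Il17a was in 0 cells. These few cells test nothing.

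The genes of the type 17 program were described as a list of 22. In CD4+ Tc 9 of them were measured well enough to be tested between the groups, and 0 rose and 0 fell. That count is no result about them, since 0.0104% of all genes were called. Their median log2 difference was -0.11, with -0.01 over all genes. Il18r1, a receptor chain for IL-18, stood at 165 and 286 CPM against 439 and 283 CPM, with overlap of the groups (log2 difference -0.72 ± 0.32 SE, adjusted p of 1.00 by edgeR's quasi-likelihood test with Benjamini-Hochberg adjustment). Rora, which encodes a nuclear receptor, stood at 156 and 142 CPM against 251 and 154 CPM. Between CD4+ and CD8+ Tc, 6 of 9 tested members were higher in CD4+ Tc and 0 lower, with a median of 0.69, where 12.3% of all genes tested were higher and 12.1% lower. They were Maf (log2 difference 3.06 ± 0.14 SE), Tnfsf11, which encodes RANKL (3.34 ± 0.25), Furin (1.49 ± 0.10), Il18r1 (0.72 ± 0.10), Batf (0.30 ± 0.06) and Rora (0.28 ± 0.09). The 3 members not called were Smox (0.69 ± 0.37), Ahr (0.31 ± 0.22) and Ccr6, which had a negative value (-0.32 ± 0.36).

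Helper fate genes were higher in CD4+ than in CD8+ Tc in 13 of 17 tested cases, and 1, Tbx21, was lower (log2 difference -0.30 ± 0.10 SE), where 12.3% of all genes tested were higher and 12.1% lower. The 3 largest differences among them were those of Ccr4 (4.25 ± 0.48 SE), Foxp3 (4.22 ± 0.32) and Cd40lg (3.70 ± 0.20), and the pair's 3.02 and 2.87 lay below these and near Il21 (3.17 ± 0.17) and Il1rl1 (2.74 ± 0.31). Between the genotypes none of the 17 was called in CD4+ Tc, where 0.0104% of all genes were called, and their median was -0.06.

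Families related to the pair by structure or site of action were described in the same way, and a count of 0 called between the genotypes in CD4+ Tc is no result about them, since 0.0104% of all genes were called. Of the MS4A relatives, 5 of 18 were tested in CD4+ Tc between the genotypes and 0 were called, with a median of 0.14. Ms4a4b, the most abundant, stood at 1291 and 1331 CPM against 1533 and 1397 CPM. Between CD4+ and CD8+ Tc, Ms4a6c (log2 difference 1.54 ± 0.11 SE) and Ms4a4c (1.32 ± 0.14) were higher and Ms4a4b lower (-0.23 ± 0.05), so that 3 of the 5 tested were called, with 24.3% called among all genes. Of the endolysosomal channel genes, 11 of 14 were tested in CD4+ Tc between the genotypes and 0 were called, with a median of 0.19. The purinergic channel P2rx4 (1.16 ± 0.19 SE) and the channel Tpcn1 (0.65 ± 0.16) were higher in CD4+ than in CD8+ Tc, and Ostm1, a partner of the chloride transporter Clcn7, was lower (-0.33 ± 0.09). These 3 of 13 tested are near the share over all genes (24.3%). Of the antigen presentation genes, 8 of 20 were tested in CD4+ Tc between the genotypes and 0 were called, with a median of 0.08. Cd74, Ccr7 and Ctss were higher in CD4+ than in CD8+ Tc, and Irf8 and Itgax were lower, which makes 5 of 10 tested. In CD8+ Tc and outside the T cell clusters, 0 genes of any of these lists were called between the genotypes. The shares over all genes there were 0.0276% and 0%, so these counts are no result about the lists either.

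The neighbours of the pair on chromosome 6 centred near 0 in the comparison of the genotypes in CD4+ Tc. Of 37 other genes within 500 kb, 19 were tested, 0 were called, and their median log2 difference was 0.04. The count of 0 is no result about them, since 0.0104% of all genes were called. The Gimap genes nearest to it, which encode GTPases of lymphocytes, ranged from -0.24 to 0.23. Gimap4, for instance, stood at 827 and 829 CPM against 812 and 834 CPM. Lrrc61 had the largest positive value in the window (log2 difference 1.11 ± 0.41 SE), on 4.83 to 14.6 CPM. Between CD4+ and CD8+ Tc, Zfp467 (1.74 ± 0.28 SE), Krba1 (0.56 ± 0.18), Gimap3 (0.26 ± 0.06) and Gimap1 (0.17 ± 0.06) were higher and Gimap7 (-0.43 ± 0.06) lower. These are 5 of 19 tested, near the 24.3% called among all genes.

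**Figure D4:**
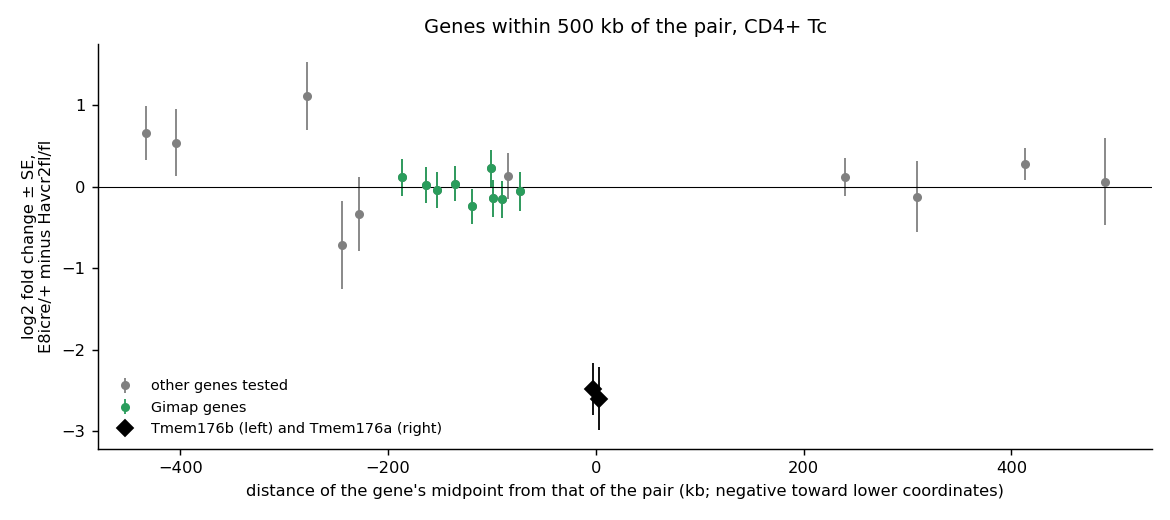
Fitted log2 difference (Havcr2fl/fl;E8icre/+ minus Havcr2fl/fl) with its SE in CD4+ Tc for the genes tested within 500 kb of the pair, against the distance of each gene's midpoint from that of the pair in kb. The pair (black diamonds) lies at -2.60 and -2.48, and the Gimap genes (green) lie between -0.24 and 0.23.

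The genes whose levels followed the pair most closely differed with the classes considered. Over all 29 classes with at least 20 cells in a library, the highest Spearman correlations with the summed level of the pair among 9661 genes were those of Tnfrsf13b (0.76), Gpr183 (0.72), Pecam1 (0.72), Ly6e (0.71), H1f0 (0.71), Dnajc3 (0.71), Selenom (0.70), Etv6 (0.70), Ly96 (0.70) and Selenos (0.69). Over the 15 T cell states alone, among 9286 genes, they were those of Itgb1 (0.92), Gpr183 (0.90), Rgcc (0.90), Tnfrsf25 (0.89), Serpinb1a (0.89), Cd44 (0.88), Xylt1 (0.88), Polr2e (0.88), Psmd5 (0.88) and Qrfp (0.87). The lists have 1 gene in common, Gpr183, which encodes a receptor for oxysterols that guides lymphocytes within lymphoid organs. Each was picked as the highest of all genes compared, over classes that share libraries, so the values rank genes and test nothing.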

How the data were processed

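The authors prepared 3′ libraries (10x Genomics, dual index) with feature barcoding and deposited, per library, the UMI count of each gene and of 1 antibody tag in each barcode called as a cell. Per the labels and file headers, Cell Ranger 6.1.2 and the mm10 genome were used. No normalization preceded the deposit of these counts. The members and gene lists were chosen with earlier results of these data known.

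The 11632 barcodes that passed minimums of 500 genes and 1000 UMIs and a maximum of 10% mitochondrial UMIs were kept, and 125 doublets called by Scrublet (scanpy 1.11.5) were removed, of which 109 were in 1 library. Since 2 to 9 were called in each of the others, the caller may not have worked there, and removal of the highest scores was an alternative. Clustering used Seurat 5.3.0 (2000 variable genes without the pair, 30 dimensions, resolution 0.6, 21 clusters), and CD4+ and CD8+ Tc were clustered again (6 and 10 states). Because cluster borders moved with the numerical library used, clustering under another kernel of that library was an alternative. A class was named only where fixed marker lists were raised. Class levels are CPM over all UMIs of the class in a library, and means are over libraries with at least 20 of its cells.

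UMIs were summed per library and class and compared with edgeR 4.0.16 (R 4.3.3; TMM, filterByExpr, glmQLFit and glmQLFTest, Benjamini-Hochberg adjustment over all genes tested, threshold 0.05), with 2 mice per group and the genotype as the term, or with the mouse as a block for CD4+ against CD8+ Tc. The methods text used here gives no test of single genes between these genotypes. Alternatives were DESeq2 1.42.0, its size factors, no filter on low counts, leaving out each library, doublet and cell filters, classes by cluster and a replicate block. The fits were tested on simulated data. The genes named are the pair and, of each list and of the genes within 500 kb, those that were called or else up to 3 with the highest level in the class, and the 10 genes with the highest Spearman correlation with the pair over classes among those with a mean of at least 5 CPM. Lrrc61, Il1rl1, Il21, Gimap4, Smox, Ahr and the fitted value of Ccr6 were given after their values were seen where this rule did not name them. Promoter windows came from RefSeq. Intervals cover counting error only. The replicate numbers come from the labels, which tie no 2 mice together. The values of 1 gene of the fixed lists are not reported here.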

Additional observations from a re-analysis of the deposited data

How the results depend on the processing

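The log2 difference of the pair between the genotypes in CD4+ Tc was negative in all 15 alternatives, from -3.28 to -2.13 for Tmem176a and from -2.84 to -2.06 for Tmem176b. In CD8+ Tc it was also negative in all 15, from -1.45 to -0.50 and from -1.43 to -0.43. Outside the T cell clusters it changed sign in 1 of 14, without Havcr2fl/fl;E8icre/+ replicate 2 (-0.28 for Tmem176a and -0.17 for Tmem176b), and otherwise reached up to 0.47 and 0.56. The difference of CD4+ minus CD8+ Tc stayed between 2.48 and 3.36 for Tmem176a and between 2.38 and 3.25 for Tmem176b in 13 alternatives. The alternatives with a crossed block, without cells with many Jchain UMIs and with another numerical kernel were chosen after seeing the data.

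The counts of called genes were far less stable, and the cause was not tested. In CD8+ Tc the 3 called genes became 98 without a filter on low counts, 0 with the replicate block and 71 with crossed numbers, and 1 to 13 when 1 library was left out. In CD4+ Tc the 1 called gene became 0 with the replicate block, the removal of the highest doublet scores or the stricter cell filter (1000 genes, 5% mitochondrial UMIs). It became 2 with classes by cluster or without cells with many Jchain UMIs, 6 with DESeq2, 36 with crossed numbers and 45 without the filter, and 6 to 27 when 1 library was left out. Outside the T cell clusters the count of 0 became 25 with DESeq2 and 64 without the filter, stayed 0 with the replicate block, and was 0 to 399 when 1 library was left out. Between CD4+ and CD8+ Tc the 2509 called genes became 1517 with DESeq2 and 1697 to 2138 with 1 library left out. Classes by cluster could not be applied outside the T cell clusters.

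Samples with the same number did not deviate together (correlations of -0.197 in CD8+ Tc, -0.0238 in CD4+ Tc and -0.305 outside the T cell clusters, over 2 pairs), so the replicate block shares only a number.

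Cluster borders moved with rounding. Under another kernel, CD4+ state 4 had 189 of its 191 cells in 1 state and state 0 had 569 of its 602. CD4+ state 3 had 158 of its 209 cells in 1 state, and CD8+ state 8 had 54 of its 119. CD8+ state 7, the highest of the CD8+ states, was not kept apart, since 247 of its 249 cells joined 275 cells of state 5 in a state of 528. The highest mean of a CD4+ state ranged from 42.6 to 84.8 CPM for Tmem176a and from 39.9 to 70.8 CPM for Tmem176b. That of a CD8+ state ranged from 6.20 to 7.78 and from 5.67 to 10.9 CPM. These ranges cover 6 alternatives, some of them other clusterings and some subsets of the cells. The upper ends for CD4+ states came with the pair among the variable genes, where it helped to set the states. At a higher resolution without the pair the values were 68.7 and 65.6 CPM.

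Depth limits the share of positive cells. After thinning to 2000 UMIs the mean over libraries of cells with a Tmem176a UMI went from 1.26% to 0.705% in CD8+ Tc, from 5.94% to 4.02% in CD4+ Tc and from 11.3% to 2.54% outside the T cell clusters. For Tmem176b it went from 1.31% to 0.470%, from 5.47% to 3.39% and from 11.8% to 2.72%.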
